A study of Nematostella vectensis with 18 samples.

Results

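The genes described here are 150 genes of the sea anemone Nematostella vectensis whose transcripts were more abundant in both of 2 sorted, reporter-positive tentacle cell populations than in their reporter-negative counterparts. They were chosen by a rule on the measured levels. For each gene, the mean of log2(CPM + 1) in the negative libraries was subtracted from that in the positive libraries, separately in the Ncol3 and in the Nep3 reporter line. CPM is a gene's count scaled to a common library size, here after TMM scaling, which corrects for differences in library composition. Genes needed a mean of at least 10 CPM in their highest group and a difference of at least 1 in both lines. Of 23764 genes with any count, 493 met these thresholds, and the 150 with the largest smaller difference were taken. The positive-against-negative differences of these genes are therefore a description and not a test result.

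Cells came from dissociated tentacles of untreated adult polyps, which had been held at 18 °C and 16 permil sea salt; no sex was given. All animals carried a transgene, Ncol3::mOrange or Nep3::mOrange, and both the positive and the negative cells of a line carried it; fluorescence-activated cell sorting separated them by the reporter's signal. RNA-seq libraries of poly(A) RNA were made from 4 negative and 4 positive samples of the Ncol3 line and from 5 negative and 5 positive samples of the Nep3 line. The labels call the Ncol3-positive cells cnidocytes and the Nep3-positive cells nematocytes. The replicates are described as biological, but the labels do not tie them to animals, so p-values measure the spread between these samples, part of which may be technical.

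Cnidocytes are the stinging cells of cnidarians, and each builds a capsule with an eversible thread from secreted proteins. Nematocytes, which pierce and inject venom, and spirocytes, which hold adhesive threads, are both found in the tentacles of sea anemones. Ncol3 is a minicollagen, one of the short collagens that form the capsule wall, and Nep3 is a toxin-like protein of nematocytes. Ncol3 is known from cnidocytes in general and Nep3 from nematocytes. The gene models carry NV2 numbers that the files do not pair with gene names, and 0 of them were found in the RefSeq gene table used, so no function is given for any of them and no sequence is shown.

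The libraries held between 5463324 and 15269119 counts. The reporter transcript mOrange2, which is not among the 150 genes, was higher in every positive than in every negative library of its line. It stood at 251, 213, 370.3 and 338 CPM in Ncol3-negative replicates 1 to 4 and at 685, 783, 1162 and 1272 CPM in the Ncol3-positive replicates 1 to 4. In the Nep3 line it stood at 36.6, 31.8, 45.3, 185 and 131 CPM in negative and at 625, 941, 547, 798 and 664 CPM in positive replicates 1 to 5. Negative cells were thus not free of the reporter transcript, and its level in Ncol3-negative libraries exceeded that in every Nep3-negative library. Ncol3-positive replicates 3 and 4 stood apart from replicates 1 and 2 in composition, with TMM factors of 0.620 and 0.568 against 0.960 and 0.900. Counts of called genes that rest on the Ncol3 line are for this reason also given for each pair of replicates.

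All 150 genes passed the filter on low counts that left 18976 entries for the tests. The difference that ranked them was between 1.93 and 3.30 in the Ncol3 line, with a median of 2.32 on the log2(CPM + 1) scale. In the Nep3 line it ranged from 1.94 to 5.68, with a median of 4.20. The Nep3 difference was the larger one for 143 genes and the Ncol3 difference for 7, so the Ncol3 line decided the rank of nearly every gene. All 150 genes were higher in the positive library of each of the 9 same-numbered pairs of libraries. In the edgeR quasi-likelihood fit, all 150 were called higher in both lines, against 5.08% of all entries tested (14.8% for Ncol3 and 18.6% for Nep3); the rule used these contrasts, so the count follows from the choice. It fell when Ncol3 replicates were split, to 139 with replicates 1 and 2 alone and to 146 with 3 and 4 alone. Positive and negative libraries did not overlap in either line for 149 of them, against 4.7% of the NV2 genes tested, and NV2.7207 was the exception. The edge of the list was not a gap in the data. The last 3 genes taken, NV2.11544, NV2.12350 and NV2.24481, had a smaller difference of 1.93, 1.93 and 1.93. The next 3, NV2.16718, NV2.346 and NV2.10959, which were left out, had 1.92, 1.92 and 1.92.

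**Figure D1:**
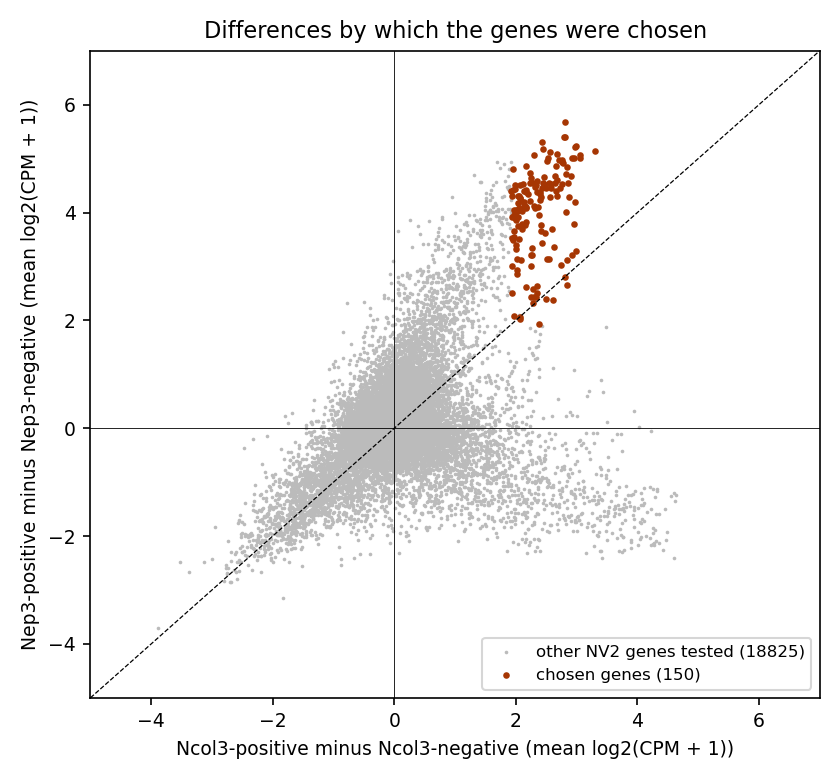
Each point is a gene; the x axis is the Ncol3-positive minus Ncol3-negative difference and the y axis the Nep3-positive minus Nep3-negative difference, both in mean log2(CPM + 1), and the dashed line marks equal differences. The 150 chosen genes (red) lie at 1.93 or more on both axes, and 143 of them lie above the dashed line.

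The gene with the largest smaller difference, NV2.14357, was at a low level in negative cells. It stood at 3.07, 2.40, 0.584 and 1.07 CPM in Ncol3-negative replicates 1 to 4 and at 33.3, 29.5, 21.6 and 17.2 CPM in the positive replicates. In the Nep3 line the negative replicates 1 to 5 gave 0, 0.337, 1.57, 1.82 and 0.811 CPM and the positive replicates 36.5, 35.2, 74.6, 82.8 and 109.8 CPM. All positive libraries of both lines lay above all negative ones, and Nep3-positive replicates 1 and 2 were close to the Ncol3-positive libraries while replicates 3 to 5 were higher. The log2 fold change of positive over negative cells was 3.73 (SE 0.59) for Ncol3 and 6.15 (SE 0.58) for Nep3.

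NV2.13883, the second by rank, was measured at a higher count level. Ncol3-negative replicates held 94.1, 69.6, 37.5 and 38.1 CPM and Ncol3-positive replicates 411, 477, 446 and 555 CPM. Nep3-negative replicates held 25.9, 24.2, 50.1, 71.5 and 45.0 CPM and Nep3-positive replicates 1056, 1392, 1276, 1181 and 1783 CPM. The negative libraries of the lines overlapped, whereas every Nep3-positive library exceeded every Ncol3-positive one, and the log2 fold changes were 2.92 (SE 0.32) and 4.91 (SE 0.32). NV2.25346 showed the same order of groups, rising from 19.8 ± 11.3 to 152 ± 15.6 CPM in the Ncol3 line (SD, n = 4 each) and from 19.4 ± 8.53 to 666 ± 222 CPM in the Nep3 line (SD, n = 5 each). NV2.15870 went from 3.69 ± 0.785 to 36.5 ± 7.09 CPM and from 2.36 ± 1.12 to 121 ± 21.7 CPM in the same order of lines. NV2.553 had 13.2, 9.21, 5.04 and 8.45 CPM in the Ncol3-negative replicates and 78.9, 68.2, 63.8 and 85.8 CPM in the positive ones, and a mean of 5.55 ± 2.03 CPM in the Nep3-negative and 239 ± 53.8 CPM in Nep3-positive cells. In these 3 genes the Nep3 log2 fold change was the larger, at 5.06 (SE 0.38), 5.63 (SE 0.25) and 5.37 (SE 0.26) against 2.87 (SE 0.38), 3.23 (SE 0.25) and 2.98 (SE 0.27). NV2.17523 and NV2.11807 completed the first 8 together with NV2.15872, which followed a different pattern described further on. NV2.17523 had log2 fold changes of 3.23 (SE 0.36) for Ncol3 and 4.79 (SE 0.34) for Nep3, and NV2.11807 had 2.98 (SE 0.29) and 5.05 (SE 0.28).

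Levels among the 150 genes spanned several orders of magnitude in each population. The group mean ranged from 0.337 to 453 CPM in Ncol3-negative cells, with a median of 5.42, and from 4.33 to 2159 CPM in Ncol3-positive cells, with a median of 34.7. It ranged from 0.445 to 596 CPM in Nep3-negative cells (median 4.69) and from 7.45 to 10243 CPM in Nep3-positive cells (median 102). The negative populations thus had similar medians, and the Nep3-positive median was the highest of the 4. A mean of at least 1000 CPM was reached by 21 genes in Nep3-positive cells, by 3 in Ncol3-positive cells and by 0 in either negative population. In negative cells most were detected at a low level: 100 genes averaged below 10 CPM in Ncol3-negative and 102 in Nep3-negative cells, and 142 of 150 had at least 1 count in every one of the 18 libraries. These values are not corrected for transcript length, so they order the genes by reads and not by molecules.

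Summed over the 150 genes, the share of all counts in a library separated the populations in the same way. It was 0.609, 0.487, 0.319 and 0.373% in Ncol3-negative replicates 1 to 4 and 1.59, 1.67, 1.08 and 1.18% in Ncol3-positive replicates 1 to 4. It was 0.261, 0.267, 0.415, 0.506 and 0.365% in Nep3-negative replicates 1 to 5 and 5.36, 6.37, 7.18, 6.60 and 9.57% in Nep3-positive replicates 1 to 5. The lowest Nep3-positive library thus held a larger share than any Ncol3-positive library, while the negative groups overlapped. The group values were 0.447 ± 0.129%, 1.38 ± 0.293%, 0.363 ± 0.103% and 7.02 ± 1.57% in the same order (SD, n = 4, 4, 5 and 5). Relative to the TMM-scaled library size, an alternative chosen after the data were seen, the Ncol3-positive share was 1.90%, and 1.69, 1.88, 1.84 and 2.20% in replicates 1 to 4. In Ncol3-positive replicates 3 and 4 the share was below that of replicates 1 and 2 by total count and no longer so after TMM scaling. In bulk RNA, a lower share of cells of one type and less RNA per cell cannot be told apart.

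**Figure D2:**
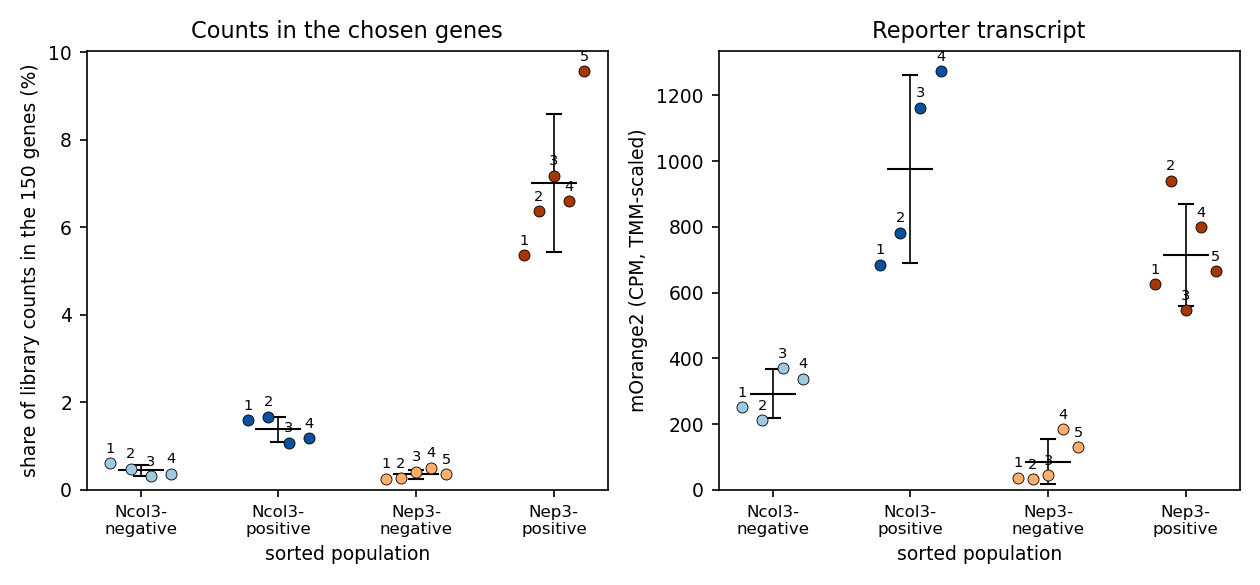
Left, the share of each library's counts that fell in the 150 genes, in percent; right, the reporter transcript mOrange2 in TMM-scaled CPM. Points are libraries with their replicate numbers, and bars give the mean ± SD; Nep3-positive libraries hold 5.36% to 9.57% of their counts in these genes, while their mOrange2 levels overlap those of Ncol3-positive libraries.

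A few genes held much of this share. NV2.19682 took 14.5% of all counts in the 150 genes over the 18 libraries, and the 10 with the most counts took 52.0%. NV2.19682 stood at 747, 559, 219 and 286 CPM in the Ncol3-negative and at 1732, 2126, 1546 and 1873 CPM in the Ncol3-positive replicates 1 to 4. It stood at 394, 403, 718, 901 and 564 CPM in the Nep3-negative and at 6382, 9832, 10248, 8366 and 16388 CPM in Nep3-positive replicates 1 to 5. The gene was thus already well detected in negative cells of both lines, and Nep3-positive replicate 5 was the highest library by a wide margin. NV2.12351, NV2.5860 and NV2.3734 had the same order of positive populations, with 4562 ± 1636, 3562 ± 1211 and 3664 ± 829 CPM in Nep3-positive cells against 786 ± 103, 878 ± 245 and 774 ± 47.3 CPM in Ncol3-positive cells. NV2.19701 and NV2.24481 followed with 2325 ± 391 against 720.2 ± 115 and 2247 ± 569.6 against 344 ± 83.4 CPM. NV2.20074 was different, since its positive populations overlapped. Ncol3-positive replicates gave 2134, 2554, 1730.1 and 2217 CPM and Nep3-positive replicates 1899, 2919, 2491, 2522 and 3601 CPM. Its negative populations did not overlap, with 618, 414, 205 and 234 CPM in the Ncol3-negative and 108, 104, 144, 202 and 120.4 CPM in Nep3-negative replicates, the former being higher.

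**Figure D3:**
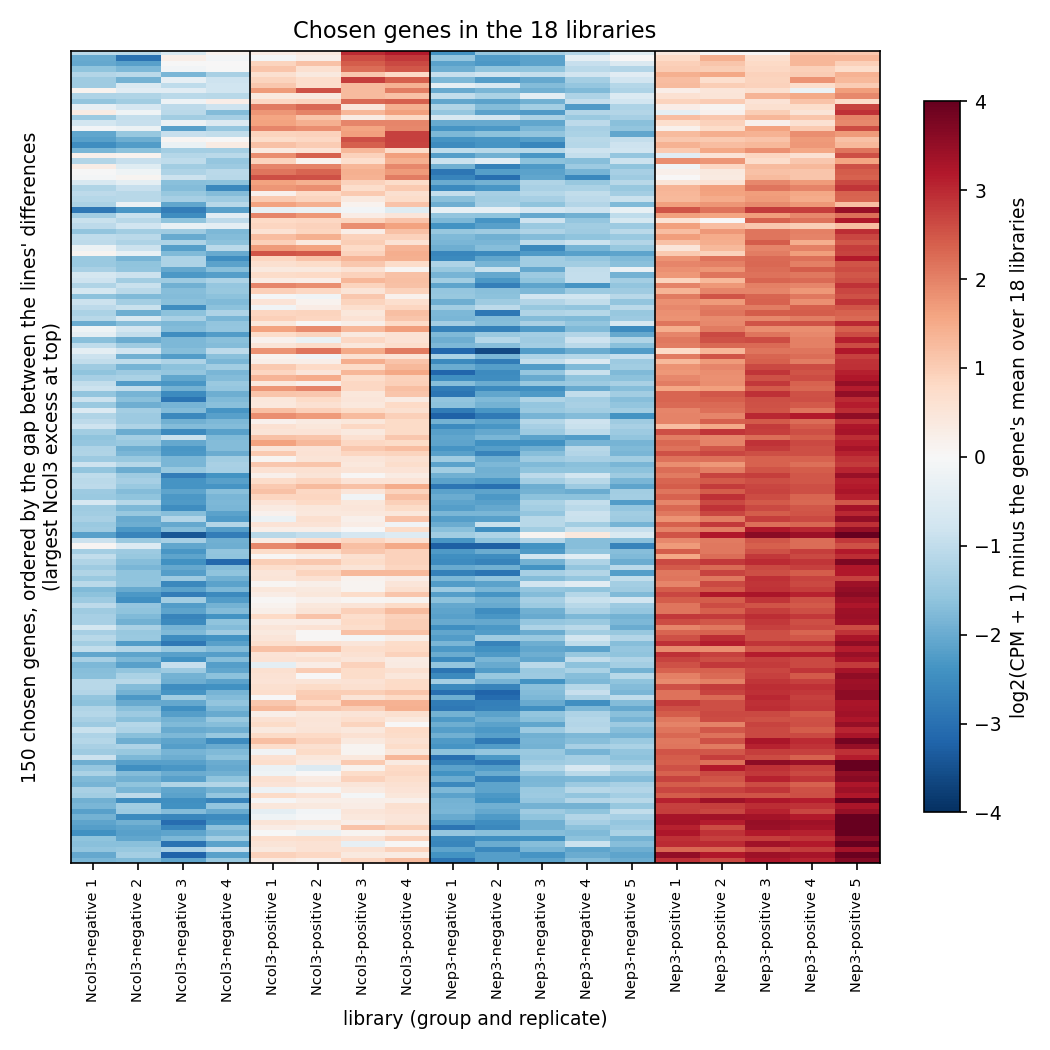
Rows are the 150 genes and columns the 18 libraries; colour gives log2(CPM + 1) minus the gene's mean over all libraries, and colours saturate beyond 4 units. Rows are ordered by the Nep3 difference minus the Ncol3 difference; the 21 genes with the highest mean in Ncol3-positive cells lie towards the top, and most other genes are highest in Nep3-positive libraries.

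The order of the 4 group means took 4 forms. In TMM-scaled CPM, Nep3-positive cells were highest for 129 genes and Ncol3-positive cells for 21. This split depends on the scaling. Relative to the unscaled library size, the Nep3-positive mean was the higher for NV2.15872, NV2.25535 and NV2.11544, for example, which are among the 21. Among all NV2 genes tested, Nep3-positive was the highest group for 33.1% and Ncol3-positive for 27%. The rule put the positive above the negative group in each line, so the shares of all genes are not a like comparison for these counts. Among the 129 genes, the Ncol3-negative group was the lower of the negative groups for NV2.12350 and 58 others. The Nep3-negative group was the lower for 70. Both positive means were above both negative means for all but NV2.12350. Its level was 62.4, 44.8, 25.9 and 41.5 CPM in the Ncol3-negative and 132, 146, 177 and 199 CPM in the Ncol3-positive replicates 1 to 4. It was 109, 122, 311, 382 and 185 CPM in the Nep3-negative and 1644, 2649, 3519.8, 3095 and 5073 CPM in Nep3-positive replicates 1 to 5. Its mean in Nep3-negative cells thus exceeded that in Ncol3-positive cells, although the libraries overlapped. In single libraries, every Nep3-positive library exceeded every Ncol3-positive one for 111 genes, and the reverse held for 0. Of all NV2 genes tested, 15.5% and 13.8% were separated in these ways. This comparison overlaps with the differences the rule used, so these counts are a description. For 141 genes all 9 positive libraries lay above all 9 negative ones, whatever the line, against 3.64% of the NV2 genes tested; the rule chose for differences between positive and negative cells, so nothing is read from this count.

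Only 1 comparison of group levels was tested: the average of the Nep3-positive and Nep3-negative groups against the average of the Ncol3-positive and Ncol3-negative groups. With equal numbers of positive and negative libraries in each line, and equal spread, its error is uncorrelated with that of both differences used by the rule. Spread was not equal for every gene. The lowest genes of this comparison, named below, had larger standard errors between negative than between positive populations, so for them this holds only in part. It asks whether the genes stood at a different level in the Nep3 than in the Ncol3 line over both sort gates. At an adjusted p-value under 0.05 (edgeR quasi-likelihood test, Benjamini-Hochberg over 18976 entries), 98 of 150 genes (65.3%) were higher and 10 (6.67%) lower in the Nep3 line, and 42 did not pass. Of all entries tested, 15.3% were called higher and 12.5% lower. Where negative levels are equal, a larger difference in the Nep3 line also raises this average, and the rule chose large differences, so nothing is read from these shares as particular to the genes. The median log2 fold change between lines was 0.88 over the 150 genes and 0.03 over all entries. With only Ncol3 replicates 1 and 2, 75 were called higher and 10 lower, and with only replicates 3 and 4, 99 and 12. The count of lower genes fell to 6 without Nep3-negative replicate 1, without Nep3-negative replicate 2 and without Nep3-positive replicate 3. The reporters were carried by different lines, so a difference between reporters and one between the lines' animals cannot be told apart.

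The parts of this difference are given as values, since they overlap with the contrasts of the rule. Between Nep3-positive and Ncol3-positive cells, the log2 fold change was positive for 129 of 150 genes and at least 1 for 112, with a median of 1.93 against 0.11 over all entries. Between Nep3-negative and Ncol3-negative cells, it was within 1 unit of 0 for 126 genes, with a median of −0.12 against 0.02 over all entries. The gap between the lines thus lay mainly in the positive populations. The Ncol3-negative libraries held more mOrange2 than the Nep3-negative ones, as given above; the part of the sort in these values was not tested.

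**Figure D4:**
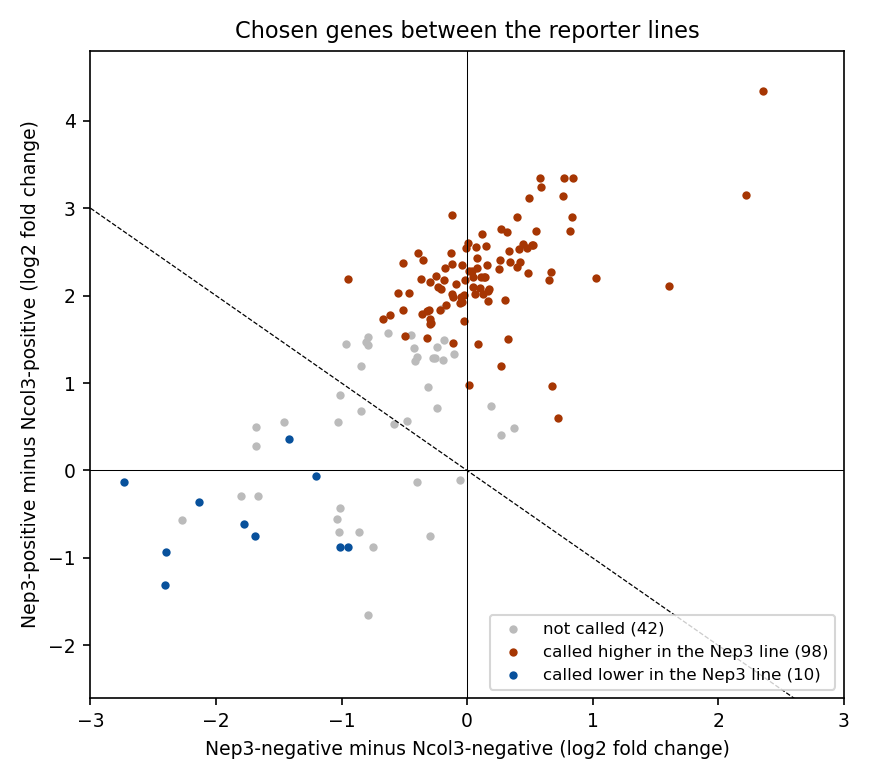
Each point is 1 of the 150 genes, with the Nep3-negative minus Ncol3-negative log2 fold change on the x axis and the Nep3-positive minus Ncol3-positive log2 fold change on the y axis; on the dashed line the line average is equal. Red and blue mark genes called higher (98) and lower (10) in the Nep3 line at an adjusted p-value under 0.05; all red genes have y values above 0, and all blue genes have x values below 0.

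NV2.12350 and NV2.14401 had the highest values of the between-line comparison, 3.35 (SE 0.28, edgeR adjusted p = 8.17e-08) and 2.69 (SE 0.16, edgeR adjusted p = 4.71e-11). They also had the largest Nep3-negative minus Ncol3-negative values, 2.36 (SE 0.38) and 2.22 (SE 0.23) in log2 units, where 4 of 150 genes reached 1. NV2.14401 stood at 5.36, 8.20, 5.84 and 9.21 CPM in the Ncol3-negative and at 36.4, 38.4, 42.4 and 32.3 CPM in the Ncol3-positive replicates. In the Nep3 line its negative replicates gave 36.6, 36.1, 28.2, 25.1 and 37.1 CPM and its positive replicates 265, 208, 322, 316 and 503 CPM. Its Nep3-negative and Ncol3-positive libraries thus overlapped. NV2.20560 and NV2.16584 came next with 2.09 (SE 0.18, edgeR adjusted p = 1.10e-08) and 2.06 (SE 0.17, edgeR adjusted p = 7.92e-09). In both the positive populations were more than 3 log2 units apart, 3.34 (SE 0.26) and 3.35 (SE 0.26), and the negative ones 0.84 (SE 0.25) and 0.77 (SE 0.24). NV2.20560 stood at 82.7 ± 7.67 CPM in Ncol3-positive (SD, n = 4) and 811 ± 270.4 CPM in Nep3-positive cells (SD, n = 5). NV2.16584 stood at 142 ± 32.0 and 1394 ± 395 CPM. The genes with the most reads passed as well, NV2.19682 with 1.48 (SE 0.24, edgeR adjusted p = 7.33e-05), NV2.12351 with 1.55 (SE 0.26, edgeR adjusted p = 1.76e-04), NV2.24481 with 1.51 (SE 0.16, edgeR adjusted p = 3.01e-07), NV2.3734 with 1.15 (SE 0.21, edgeR adjusted p = 2.35e-04), NV2.5860 with 1.12 (SE 0.29, edgeR adjusted p = 0.00719) and NV2.19701 with 0.72 (SE 0.20, edgeR adjusted p = 0.0114). With Ncol3 replicates 1 and 2 alone, NV2.19701 did not pass, at 0.45 (edgeR adjusted p = 0.188).

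The 10 genes called lower in the Nep3 line were led by NV2.21654, NV2.25397, NV2.25535 and NV2.10494. NV2.21654 stood at 4.70, 2.77, 2.77 and 2.00 CPM in the Ncol3-negative and 15.7, 29.4, 11.5 and 20.2 CPM in the Ncol3-positive replicates 1 to 4. It stood at 0.272, 0.449, 0.362, 0.511 and 1.18 CPM in the Nep3-negative and 5.18, 6.27, 7.10, 3.35 and 15.3 CPM in Nep3-positive replicates 1 to 5. Every Nep3-negative library was below every Ncol3-negative one, and the positive libraries overlapped; the between-line value was −1.86 (SE 0.30, edgeR adjusted p = 9.37e-05). NV2.25397 and NV2.25535 gave −1.67 (SE 0.39, edgeR adjusted p = 0.00458) and −1.43 (SE 0.43, edgeR adjusted p = 0.0211), and NV2.10494 gave −1.25 (SE 0.44, edgeR adjusted p = 0.0421). In these 4 genes the negative populations differed more than the positive ones. Nep3-negative minus Ncol3-negative was −2.40 (SE 0.49), −2.40 (SE 0.61), −2.73 (SE 0.71) and −2.14 (SE 0.70), and Nep3-positive minus Ncol3-positive was −1.31 (SE 0.37), −0.93 (SE 0.48), −0.13 (SE 0.48) and −0.36 (SE 0.52). Counts were low in Nep3-negative libraries, where NV2.25535 lay between 0.272 and 0.811 CPM and NV2.10494 had no count in replicate 2. NV2.20074 also passed, at −0.53 (SE 0.19, edgeR adjusted p = 0.0373), although its Nep3-positive minus Ncol3-positive value was 0.36 (SE 0.27), and it did not pass in 13 of 29 alternatives; NV2.10494 did not in 15, NV2.25535 in 5 and NV2.25397 in 1. These 4 calls were made with Ncol3 replicates 1 and 2 alone but not with replicates 3 and 4 alone. The value with 3 and 4 alone was −0.12 (edgeR adjusted p = 0.689) for NV2.20074, −0.54 (edgeR adjusted p = 0.498) for NV2.10494, −0.18 (edgeR adjusted p = 0.757) for NV2.25535 and −1.11 (edgeR adjusted p = 0.107) for NV2.25397. NV2.21654 passed with either pair.

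**Figure D5:**
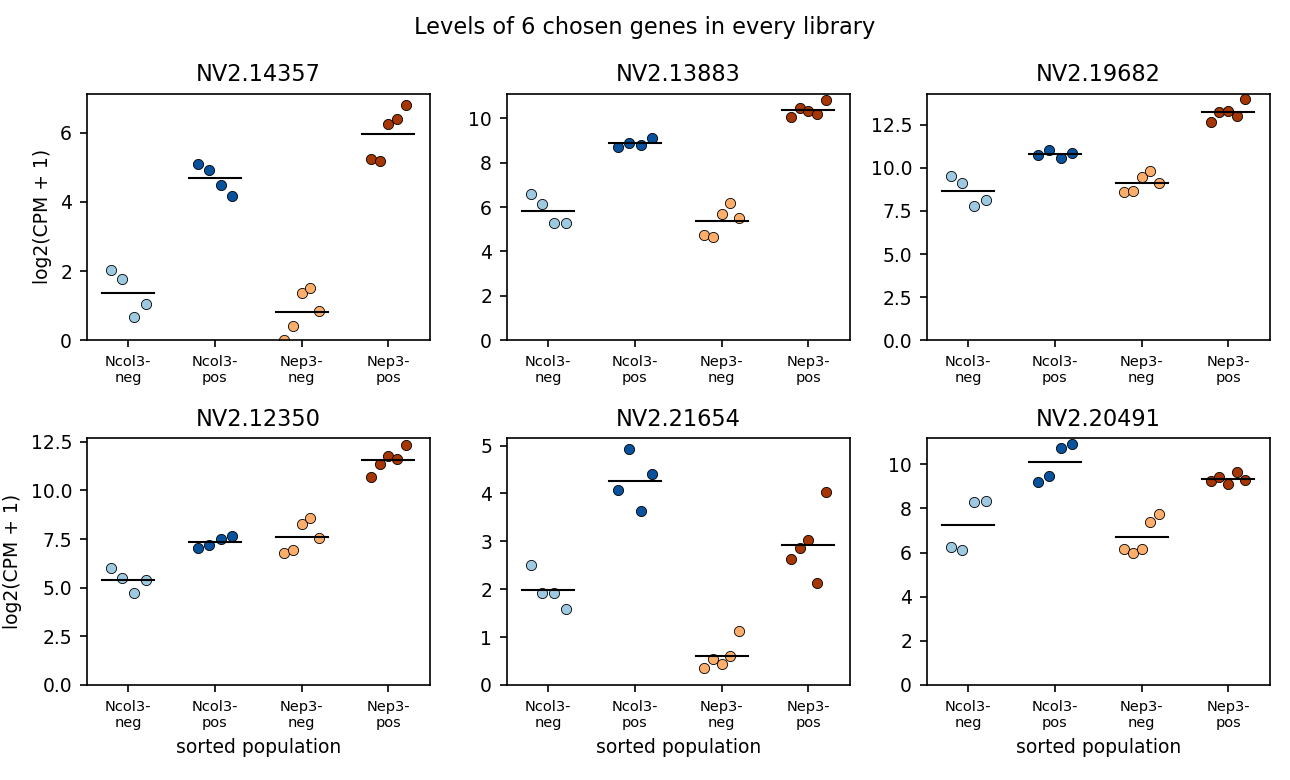
Levels of 6 genes in log2(CPM + 1) by sorted population; points are libraries and lines are group means. NV2.14357 and NV2.13883 lead the list, NV2.19682 has the most reads, NV2.12350 is highest and NV2.21654 lowest in the between-line comparison, and NV2.20491 has a higher mean in Ncol3-positive than in Nep3-positive cells.

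The 21 genes whose TMM-scaled mean was highest in Ncol3-positive cells were not of 1 kind among replicates. NV2.20491 stood at 75.2, 69.0, 313 and 323 CPM in the Ncol3-negative and 593, 707, 1703 and 1969.5 CPM in the Ncol3-positive replicates 1 to 4. It stood at 70.9, 63.0, 71.2, 168 and 211 CPM in the Nep3-negative and 609, 687, 554, 803 and 618 CPM in Nep3-positive replicates 1 to 5. Its Ncol3 replicates 3 and 4 were above replicates 1 and 2 in both gates, and only they exceeded every Nep3-positive library. NV2.15872, of rank 5, did the same in TMM-scaled CPM with 9.70, 11.9, 49.1 and 74.8 CPM in the Ncol3-negative and 134, 120.1, 319.5 and 389.7 CPM in the Ncol3-positive replicates, against 17.6 ± 11.1 and 158 ± 23.9 CPM in the Nep3-negative and Nep3-positive groups. This rests on the low TMM factors of Ncol3-positive replicates 3 and 4, 0.620 and 0.568. Relative to the unscaled library size, neither of these replicates exceeded Nep3-positive replicate 4 for NV2.15872. NV2.24363 and NV2.7207, which with NV2.20491 had the largest excess of the Ncol3 over the Nep3 difference, also followed it. NV2.24363 held 12.5, 13.9, 87.1 and 98.6 CPM in the Ncol3-positive replicates 1 to 4 and NV2.7207 held 17.8, 22.3, 119 and 138 CPM. In NV2.7207 the Ncol3 groups overlapped, since negative replicate 3 reached 22.3 CPM. By contrast, NV2.25535 was higher in replicates 1 and 2, with 43.5, 41.4, 13.8 and 20.3 CPM in the Ncol3-positive and 7.47, 5.30, 1.31 and 0.921 CPM in Ncol3-negative cells. Of the 21 genes, 11 had replicates 3 and 4 above replicates 1 and 2 in both gates; over all 150 genes this held for 15, and the reverse for 28. Of all NV2 genes tested, 8.89% had replicates 3 and 4 above and 7.02% below replicates 1 and 2 in both gates. The pattern with 3 and 4 above was thus about as common among the 150 genes as among all genes, and the reverse was more common. The 150 genes moved together within groups, as given below, so they are not independent of each other. The order in the positive gate also depends on the low TMM factors of replicates 3 and 4. Nothing is therefore read from either count.

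At the other end, NV2.25722, NV2.21411 and NV2.17119 had the largest excess of the Nep3 over the Ncol3 difference. NV2.25722 stood at 5.48, 9.46, 1.90 and 4.91 CPM in the Ncol3-negative and 49.3, 46.4, 34.2 and 32.6 CPM in the Ncol3-positive replicates. It stood at 4.08, 4.83, 4.22, 5.69 and 5.23 CPM in the Nep3-negative and 306, 243, 278, 264 and 408 CPM in Nep3-positive replicates. Its negative populations overlapped and its positive ones were far apart. NV2.21411 went from 34.7 ± 6.04 to 198 ± 69.9 CPM in the Ncol3 line and from 26.4 ± 7.34 to 1072 ± 294 CPM in the Nep3 line. NV2.17119 went from 5.96 ± 1.52 to 25.9 ± 4.33 and from 3.02 ± 0.699 to 114 ± 36.0 CPM. The difference of the log2 fold changes, Nep3 minus Ncol3, was 3.04 (SE 0.40), 2.88 (SE 0.35) and 3.14 (SE 0.32) in these genes, and its median over the 150 genes was 2.03.

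The spread among replicates of 1 group was not used by the rule. The biological coefficient of variation, edgeR's estimate of the replicate spread beyond counting error, had a median of 29.1% over the 150 genes and 23.6% over all entries tested. It was lowest for NV2.5728 and NV2.22930, at 18.3% and 18.4%, and highest for NV2.7207 and NV2.10496, at 76.9% and 74.5%. In the Ncol3 line NV2.22930 gave 2.89, 4.29, 1.61 and 3.69 CPM in the negative and 18.0, 17.1, 16.0 and 20.5 CPM in the positive replicates. In the Nep3 line it gave 2.81, 2.69, 2.78, 2.77 and 3.83 CPM in the negative and 91.6, 92.9, 106, 102 and 133 CPM in the positive replicates. NV2.5728 stood at 4.29 ± 1.29, 26.8 ± 3.78, 4.65 ± 0.948 and 70.6 ± 12.1 CPM in the same groups. Both genes were higher in every Nep3-positive than in every Ncol3-positive library, and their negative populations overlapped.

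The genes also moved together within groups. After each gene's group means were subtracted, the correlation of 2 genes over the 18 libraries had a median of 0.470 over the 11175 pairs among the 150 genes and 2.74e-04 over all pairs of NV2 genes tested; the pairs share libraries and are not independent. The 150 genes were chosen for a shared difference between positive and negative cells, so pairs of all genes are not a like comparison. The cause of the shared movement was not tested. Single libraries stood apart within their groups. Nep3-positive replicate 5 was the highest of its group for 130 of 150 genes, with a median deviation of 0.60 on the log2(CPM + 1) scale against 0.00109 over all genes tested. Nep3-positive replicate 1 was the lowest for 78, with a median deviation of −0.33. In Nep3-negative cells, replicates 4 and 5 were the highest for 78 and 54 genes and replicates 1 and 2 the lowest for 57 and 68. In Ncol3-negative cells, replicate 1 was the highest for 86 and replicate 3 the lowest for 87. Ncol3-positive replicates were the most even by this measure, with median deviations between −0.06 and 0.17. Without Nep3-positive replicate 5, the median Nep3 log2 fold change over the genes was 4.30 in place of 4.52, and 94 genes were called higher and 13 lower in the Nep3 line.

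The within-group levels did not follow the reporter transcript in a uniform way. In Nep3-negative cells, replicates 4 and 5, where most of the genes peaked, also held the most mOrange2. By share of counts the match was not complete. Replicate 3 held 0.415% at 45.3 CPM of mOrange2, and replicate 5 held 0.365% at 131 CPM. In Ncol3-negative cells, replicates 1 and 2 held the larger share of counts in the genes and the lower mOrange2 level. In Nep3-positive cells, replicate 5 held the largest share at a mOrange2 level in the middle of its group. The part of reporter level in these shares was not tested.

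The likeness to mOrange2 was measured with Pearson's r of log2(CPM + 1) over the 18 libraries, as a description that mostly reflects the 4 groups by which the genes were chosen. It ranged from 0.353 to 0.941, with a median of 0.737. NV2.11544, NV2.16480 and NV2.16666 were the most alike, with r of 0.941, 0.929 and 0.929. NV2.11544 stood at 13.7, 16.5, 23.4 and 22.1 CPM in the Ncol3-negative and 53.5, 55.7, 108 and 90.1 CPM in the Ncol3-positive replicates 1 to 4. It stood at 4.71, 5.72, 9.66, 10.6 and 10.1 CPM in the Nep3-negative and 93.8, 70.2, 62.2, 58.7 and 69.2 CPM in Nep3-positive replicates 1 to 5. As with the reporter in TMM-scaled CPM, Ncol3 replicates 3 and 4 were above replicates 1 and 2 in both gates. Nep3-negative libraries were the lowest, and the positive populations overlapped. For both the reporter and NV2.11544, the order in the positive gate depended on the scaling. Relative to the unscaled library size, NV2.11544 in Ncol3-positive replicate 4 lay below replicates 1 and 2. Its Nep3-positive mean was then above its Ncol3-positive mean. Relative to the unscaled library size, mOrange2 stood at 646, 696, 685 and 683 CPM in Ncol3-positive replicates 1 to 4. All 3 genes most like mOrange2 are among the 10 called lower in the Nep3 line. After TMM scaling the reporter was lower there in both gates as well. Its means were 293 and 975 CPM in negative and positive cells for Ncol3 against 85.9 and 715 CPM for Nep3. Without TMM scaling the order of the positive means was the other way round, at 677 ± 21.5 CPM for Ncol3 and 748 ± 167 CPM for Nep3. Since the 3 genes were picked for likeness to the reporter, their between-line log2 fold changes of −0.63 (SE 0.17), −0.94 (SE 0.33) and −1.22 (SE 0.27) are given as a description.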

How the data were processed

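The authors deposited a table of whole-number counts of the 18 libraries, without normalization; the unit was taken from the values. Per the submitters' processing notes, Trimmomatic, STAR 2.7.10a and featureCounts 2.0.1 were used. Genome build, annotation, strand setting and the treatment of shared reads are not given in the sources used here, so near-identical or overlapping genes are uncertain. Groups and replicate numbers were read from the titles; the descriptions number all Nep3-positive libraries 1, and the design text gives 4 replicates per condition. The table has 24538 entries, 24537 of them NV2 genes and 1 mOrange2, and 773 had no count. Planned lists of named marker genes could not be matched and were not run.

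CPM for the rule and the levels used TMM factors over NV2 genes with any count. Tests used edgeR 4.0.16 in R 4.3.3: filterByExpr by group, TMM, 1 mean per group over all 18 libraries, robust quasi-likelihood fits, two-sided, with Benjamini-Hochberg adjustment over 18976 entries at 0.05. Standard errors (SE) were obtained from the F statistic, as the absolute log2 fold change over its root. On counts simulated for the between-line comparison (18976 genes, 200 changed), 81% of changes of 1 log2 unit and 90% of 2 units were called, and 2.29% of calls were false. Replicates differed beyond sampling noise (chi-square per degree of freedom at least 6.29). DESeq2 1.42.0 and limma 3.58.1 served as alternatives.

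The genes, the lists and the tests were chosen with earlier results of these data known. Genes are named by a rule: the 8 with the largest smaller difference, the 8 with the highest mean CPM in the positive groups, the 4 highest and 4 lowest between-line values among those called, the 3 with the largest excess of either difference, the 2 with the highest and lowest biological coefficient of variation, the 3 most like mOrange2, and the 3 on each side of the last rank.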

Additional observations from a re-analysis of the deposited data

Results flagged for a closer look

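160 sets of replicate values (each named gene, the summed share and mOrange2, in each group) were searched for a library far from the others of its group by Dixon's test. 11 were found, and chance alone gives about 1 in 20. Nep3-positive replicate 5 was the high library in 6 of them. There NV2.25346 stood at 1052 CPM against 494 to 637 in the other 4 replicates, and NV2.17523 at 89.1 against 33.9 to 47.6. NV2.20560 stood at 1286 against 630.1 to 773 CPM and NV2.16584 at 2093 against 1120.2 to 1281. NV2.10496 stood at 29.3 against 2.68 to 8.21 CPM and NV2.16666 at 22.8 against 6.19 to 10.9.

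The others involved different libraries. NV2.20560 was low in Ncol3-positive replicate 1, at 71.3 CPM against 85.6 to 87.1. NV2.16584 was high in Ncol3-negative replicate 1, at 32.6 CPM against 19.2 to 20.7. In Nep3-negative replicate 5, NV2.21654 was high at 1.18 CPM against 0.272 to 0.511, and NV2.22930 at 3.83 against 2.69 to 2.81. NV2.10494 was low in Ncol3-positive replicate 3, at 15.1 CPM against 23.7 to 24.6.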

How the results depend on the processing

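Between-line calls (main 98 higher, 10 lower) numbered 75 to 104 higher over 29 alternatives, and leaving out single libraries gave 90 to 103 higher and 6 to 13 lower. With the same-numbered libraries as a random replicate block (limma voom, consensus correlation 0.110) 85 were higher and 6 lower, and with averages over same-numbered libraries 86 and 4; the cause was not tested. With those averages NV2.5860 did not pass, at 1.00 (limma adjusted p = 0.0585). With a fixed replicate block, 150 genes were called higher in positive cells of both lines. Deviations of same-numbered libraries correlated by 0.0329 to 0.300 in the Ncol3 and −0.0313 to 0.327 in the Nep3 line. Of 18 libraries, 10 correlated best with their own number among the 4 or 5 libraries of the other gate in their line. Random matching would give fewer on average. The labels do not tie the numbers to animals, so whether they mark pairs is not known. Library size without scaling moved the median Ncol3 log2 fold change of all entries from −0.05 to −0.72 and that of the chosen genes to 1.84 (lowest 1.11), with 148 called in both lines; it moved the between-line median of all entries from 0.03 to 0.15. Applied again, the rule was met by 239 genes with library size only and by 273 with log2(CPM + 5), in place of 493, and kept 136 and 118 of 150. Ranking by edgeR log2 fold change kept 117, and leaving out single libraries kept 133 to 150. Without the 10 genes with the most counts, the summed shares were 0.227%, 0.773%, 0.157% and 3.30% in the negative and positive libraries of the Ncol3 line and then of the Nep3 line, by construction lower; the TMM-scaled Ncol3-positive share was 1.90%. Among the 15 named genes followed through the between-line alternatives, none reversed. Genes near 1 CPM in negative cells rest on few counts, so their fold changes are the least certain.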

Other observations

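Some of the genes carry consecutive NV2 numbers: 10 such pairs link 17 of the 150 genes. They include NV2.10494 to NV2.10496, NV2.3734 to NV2.3736, NV2.14356 to NV2.14358, and NV2.12350 with NV2.12351; these were chosen after their values were seen. After group means were subtracted, the correlation over the 18 libraries was 0.968 for NV2.12350 with NV2.12351 and 0.309 for NV2.3735 with NV2.3736, the highest and the lowest of the 10 pairs, against a median of 0.470 over all pairs of the 150 genes. The files do not say whether consecutive numbers mark neighbouring genes or copies that share reads. Despite this likeness within groups, NV2.12350 and NV2.12351 differed between groups: NV2.12351 was at 201 ± 89.0 CPM in Ncol3-negative cells against 286 ± 152 CPM in Nep3-negative cells (SD, n = 4 and 5), with overlapping libraries, while NV2.12350 did not overlap between these populations.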
